A study of Mus musculus with 2 samples.

Results

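The cytosolic ribosomal protein genes examined here encode the proteins of the large and the small subunit of the ribosome. They were chosen by symbol from the protein-coding genes of a RefSeq table of mouse assembly GRCm38.p6, as Rpl or Rplp for the large subunit and Rps for the small subunit, followed by a number and in some cases a letter. The rule found 76 genes among 21900 protein-coding genes, 46 of the large subunit and 30 of the small subunit. A peak belonged to a gene when its summit, the base of highest signal, lay in the gene span, introns included. By that rule 77 of the 21192 peaks of the study lay in these genes. The study asked which mRNAs of the uterus of wild-type mice carry N4-acetylcytidine (ac4C), a cytidine with an acetyl group, on gestational day 4. It held 1 ac4C immunoprecipitation library and 1 input control library, each from polyA RNA of the whole uterus. No other treatment or allele was named. The data were 1 list of peaks without replicates, so no value below has a replicate check, and no difference was tested.

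Ribosomal proteins are made in equal amounts from some of the most abundant mRNAs of growing cells, and are joined with ribosomal RNA in the nucleolus. Their mRNAs are short, and most begin with a 5′ terminal oligopyrimidine (TOP) tract, an unbroken run of C and T bases at the start of transcription that ties their translation to mTOR signalling. The acetyltransferase Nat10 places ac4C on the RNA of the small ribosomal subunit, on some tRNAs and, by several reports, on mRNA. In acRIP-seq, RNA fragments bound by an antibody against ac4C are sequenced beside input RNA, and a peak marks a stretch where the bound fragments outnumber the background.

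The start of these genes is shown first, since it is where a TOP tract would lie, and the symbol rule did not use it. RefSeq windows of GRCm38.p6, from 250 bases before to 50 bases after an annotated start, were matched for 56 of the 76 genes. The longest run of C and T was sought from 20 bases before to 30 bases after the start, on the strand of the gene only, and the window with the longest run was taken where a gene had several. The 3 genes with a peak and the 3 without a peak that had the longest runs are printed as 30 bases each, 5′ to 3′, with the run in capitals.
Rpl7a, with a peak (chr2:26910789-26910818, + strand): acaaTTCCCTCTTCTTTCTTTCTCCagcag
Rpl27a, with a peak (chr7:109519186-109519215, + strand): gtgagCTCCTCCCTTTTCCCTTTCTgccac
Rpl35, with a peak (chr2:39005115-39005144, - strand): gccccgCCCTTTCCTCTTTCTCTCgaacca
Rpl34, without a peak (chr3:130730330-130730359, - strand): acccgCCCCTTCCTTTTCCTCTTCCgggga
Rpl11, without a peak (chr4:136053357-136053386, - strand): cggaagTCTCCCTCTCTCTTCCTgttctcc
Rpl35a, without a peak (chr16:33056469-33056498, + strand): ggggcttgCCTTCCTCTTTCCgccatcttg

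The runs were 21 bases long in Rpl7a, 20 in Rpl27a and Rpl34, 18 in Rpl35, 17 in Rpl11 and 13 in Rpl35a. A run could begin before or after the annotated start, and in Rpl11 it lay wholly after it. The runs were therefore not shown to be TOP tracts. A run of at least 8 bases was found in 32 of the 56 genes (57.1%), against 21.3% of 17492 protein-coding genes searched in the same way. Among genes with a peak it was found in 21 of 37 (56.8%), and among those without in 11 of 19 (57.9%). The letters CTTTCC stood in this part of the window, on the gene's strand, in 19.6% of the 56 genes and in 2.53% of the 17492 protein-coding genes. Over the whole 300 bases and both strands they were found in 48.2% and 26.0%. CTTTCC is made of C and T only and can lie within a run, as in Rpl35 and Rpl35a above, so the counts are not separate. Of the 61 peaks in genes with a window, 1, in Rpl27a, reached the 50 transcribed bases of a window. The other 16 peaks lay in 10 genes without a window and were not checked. The Rpl27a peak began at base 21 after the start, just past the run printed above.

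Peaks were found in 47 of the 76 ribosomal protein genes (61.8%, 95% Wilson interval 50.6 to 71.9%), against 30.6% of all protein-coding genes. The intervals of the large and the small subunit overlapped widely, with 28 of 46 genes (60.9%, 46.5 to 73.6%) and 19 of 30 genes (63.3%, 45.5 to 78.1%). The genes are compact, with a median span of 3169.5 bp against 17146 bp for all protein-coding genes. Among protein-coding genes spanning under 5 kb, 15.6% held a peak, and among the 64 ribosomal protein genes of that size 43 did (67.2%, 55.0 to 77.4%). When only peaks with a −log10 q of at least 10 were counted, 38 of the 76 genes kept a peak, against 17.5% of all protein-coding genes and 9.61% of those under 5 kb. The depth of the peaks moves with these shares, with a median of 79 fragments at the summit in these genes against 22 in all protein-coding genes, and its part in them was not tested.

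**Figure D1:**
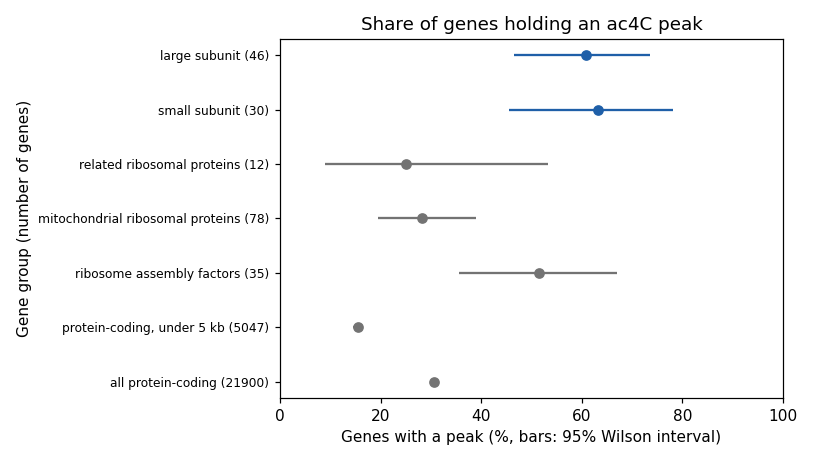
Share of genes with at least 1 peak (x axis, percent) in 7 gene groups (y axis, number of genes in brackets), with 95% Wilson intervals as bars. The large subunit (60.9%) and the small subunit (63.3%) stand together, above mitochondrial ribosomal proteins (28.2%), protein-coding genes under 5 kb (15.6%) and all protein-coding genes (30.6%).

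A peak is described by its fold enrichment, as deposited by the authors, and by the fragments behind it. Fold enrichment is the ratio of bound fragments to background at the summit, with 1 added to both. Whether the background of a peak was taken from the input library is not given in the sources used here. The median fold enrichment at the highest peak of the 47 genes was 4.27 (interquartile range 3.34 to 5.80), below the 6.61 (5.05 to 9.06) of all protein-coding genes with a peak. Only 7 of the 47 genes (14.9%) reached that median. The lowest of the 47 was Rpl23 at 1.85 and the highest Rpl27a at 11.9. The ranges of the subunits overlapped, with medians of 4.32 for the large subunit (1.85 to 11.9) and 4.11 for the small subunit (2.24 to 7.62).

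**Figure D2:**
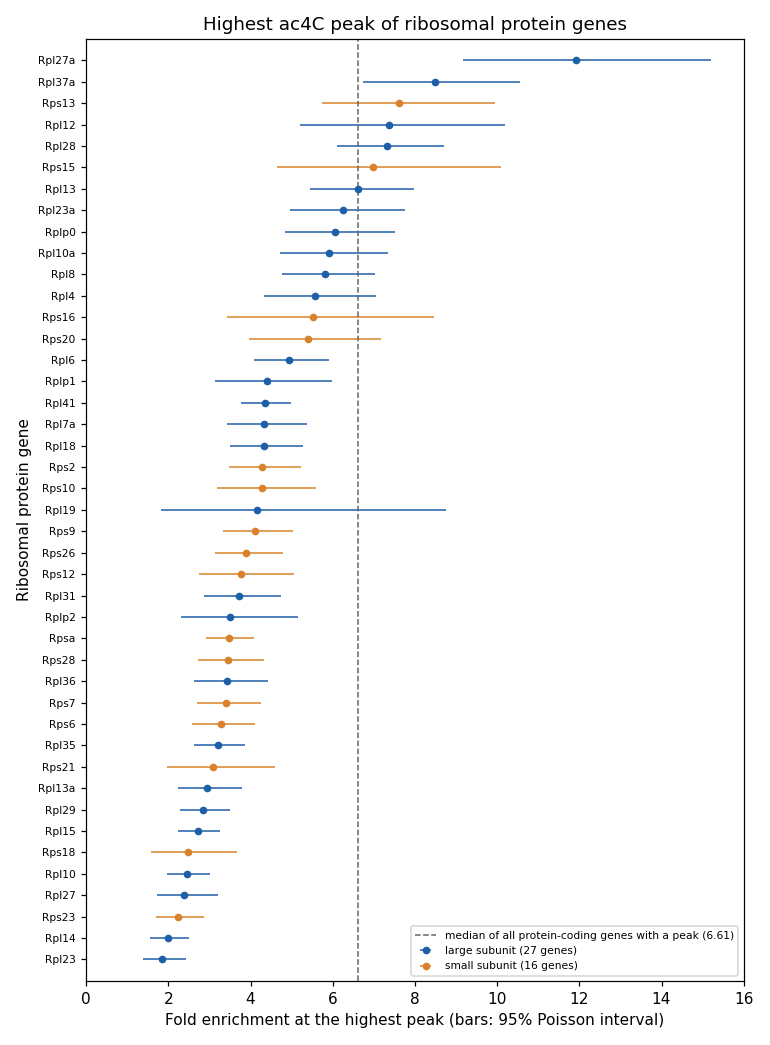
Fold enrichment at the highest peak of 43 ribosomal protein genes with a peak (x axis, linear), sorted, with 95% Poisson intervals of the fragment number as bars and large and small subunit genes in separate colours. The dashed line is the median of all protein-coding genes with a peak (6.61). Both ends of the order, Rpl23 at 1.85 and Rpl27a at 11.9, are large subunit genes, and the small subunit genes lie between 2.24 and 7.62.

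The highest fold enrichment belonged to Rpl27a, a protein of the large subunit core whose gene held 4 peaks, the most of any of these genes. Along the gene from its start, the peaks stood at 5.15 (95% Poisson interval 3.34 to 7.62), 11.9 (9.18 to 15.2), 7.49 (6.27 to 8.87) and 3.70 (2.95 to 4.58). The highest, at chr7:109519598-109520131, rested on 62 fragments over a background of 4.29. Its interval lay above that of the highest peak in 42 of the 46 other genes and overlapped 4. The third peak held the most fragments of the gene, 131 over a background of 16.6. The fall from the second to the fourth peak was thus larger than counting error, and it went with a rise in background to 21.4.

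Rpl37a, Rpl28, Rpl13 and Rpl6 encode proteins of the large subunit body and held 2 peaks each. Rpl37a, a small zinc-binding protein, held a peak of 8.48 (6.73 to 10.6) near the end of the gene at chr1:72713343-72713545, on 78 fragments over 8.32. Its other peak, nearer the start, stood at 2.12 (1.53 to 2.86), so the intervals of the pair lay apart. Rpl28 also had its higher peak near the end, at 7.33 (6.11 to 8.72; chr7:4793905-4794512), against 4.50 (3.65 to 5.48) before it. Rpl13 showed the opposite order, with 6.62 (5.45 to 7.97; chr8:123102692-123103311) followed by 4.06 (3.28 to 4.97). In Rpl6 the peak nearer the end was the higher, at 4.93 (4.07 to 5.91) against 2.83 (2.08 to 3.78). These genes therefore differed among themselves in which end of the gene carried the stronger enrichment.

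The stalk of the large subunit, which recruits translation factors, held peaks in all 3 of its genes. The interval of that share, 43.9 to 100%, includes the 61.8% of all 76 genes. Rplp0, its anchor, held peaks of 3.32, 6.06 and 4.99 along the gene. The middle one (95% interval 4.84 to 7.51; chr5:115562288-115562489) lay above the first (2.76 to 3.96). Rplp1 held peaks of 3.37, 3.29 and 4.39, whose intervals overlapped. Rplp2 held 3.51 near the start and 2.92 near the end. Rpl12, at the base of the stalk, had a single peak of 7.38 (5.20 to 10.2) at chr2:32961782-32962002, 210 bp from the gene start. Together Rplp0, Rplp1 and Rplp2 held 8 of the 77 peaks, at fold enrichments of 2.92 to 6.06.

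Some genes encode proteins at the exit of the peptide tunnel, where the new chain leaves the ribosome. Of 7 such genes 4 held a peak (57.1%, 25.05 to 84.2%). The interval of this share includes the 61.8% of all 76 genes. Rpl23a, a docking site for factors that receive the chain, stood at 6.24 (4.96 to 7.76; chr11:78182668-78183087) and 5.09 (4.23 to 6.08). Rpl31 stood at 3.72 and Rpl35 at 3.20. Rpl19 stood at 4.15, on 5 fragments over a background of 0.446, with an interval of 1.81 to 8.76. That summit also lay in the span of Cacnb1, and without strand its fragments could not be given to either gene. Rpl17, Rpl26 and Rpl39 held no peak. Rpl4, which lines the tunnel, held peaks of 5.57 (4.33 to 7.06), 2.41 (1.94 to 2.96) and 3.75 (3.13 to 4.46).

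Rpl8, Rpl10a, Rpl36, Rpl13a and Rpl41 of the large subunit gave single or paired peaks. Rpl8, which lies near the peptidyl transferase centre, stood at 5.81 and 4.40. Rpl10a, the protein of the L1 stalk, had the widest peak of these genes, 1008 bp at chr17:28328630-28329637, with a fold enrichment of 5.92 (4.71 to 7.34). Wide peaks were also those of Rplp0 with 734 bp, Rpl36 with 716 bp at 3.43 and Rpl13a with 671 bp at 2.94. Rpl13a, which also silences some inflammatory mRNAs once it is phosphorylated, had a further peak of 2.16. Rpl41, the shortest of the ribosomal proteins, had the deepest summit of these genes, with 205 fragments over a background of 46.4, yet its fold enrichment was 4.35 (3.77 to 4.98). Its other peak stood at 4.14 on 26 fragments over 5.52. These values show like fold enrichments at very different depths within 1 gene.

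Other large subunit genes with a peak included Rpl7a at 3.41 and 4.32, Rpl18 at 4.32, Rpl29 at 2.84, Rpl15 at 2.71, Rpl10 at 2.45, Rpl27 at 2.38, Rpl14 at 1.996 and Rpl23 at 1.85. Rpl5 and Rpl11, which bind 5S ribosomal RNA, and Mdm2 when ribosome assembly fails, held no peak. The remaining large subunit genes without a peak were Rpl3, Rpl7, Rpl9, Rpl21, Rpl22, Rpl24, Rpl30, Rpl32, Rpl34, Rpl35a, Rpl36a, Rpl37 and Rpl38. The background of a gene without a peak is not in the list, so enrichment in them was not detected and its absence was not shown.

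In the small subunit, peaks were found in 9 of 14 genes of the head (64.3%) and 10 of 16 of the body (62.5%). Both were near the 61.8% of all 76 genes. Of the head proteins, Rps15 and Rps16 near the decoding site had their higher value near the start. Rps15 stood at 6.97 (4.65 to 10.1; chr10:80292642-80293037) and 4.67 (3.98 to 5.45), and Rps16 at 5.52 and 4.13, with overlapping intervals in each pair. The first peak of Rps15 rested on 26 fragments and the second on 159. Rps20 stood at 5.39, Rps10 at 3.91 and 4.27, Rps12 at 3.77, Rps28 at 3.45 and Rps18 at 2.47 and 2.25. Head genes without a peak were Rps3, Rps19, Rps25, Rps27a and Rps29. Rps19 is the gene most often mutated in Diamond-Blackfan anaemia, and Rps27a is made as a fusion with ubiquitin.

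Of the body proteins, Rps13 was highest at 7.62 (5.73 to 9.95; chr7:116333045-116333266), on 52 fragments over a background of 5.95. Rps2 and Rps9, which with Rps3 form the entry of the mRNA channel, stood at 2.68, 3.17 and 4.28 along the gene for Rps2 and at 4.11 and 2.85 for Rps9. In Rps2 the last peak (3.47 to 5.22) lay above the first (2.17 to 3.28). Rps6, the substrate of the S6 kinases, stood at 3.28 and 2.80. Rpsa stood at 3.47 and 3.20, Rps26 at 3.89, Rps7 at 3.41, Rps21 at 3.08 and Rps23 at 2.24. Body genes without a peak included Rps4x, Rps14, Rps15a, Rps24 and Rps27.

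A list of 18 genes linked to Diamond-Blackfan anaemia held 10 with a peak (55.6%, 33.7 to 75.4%), near the share of all 76, and their median at the highest peak was 3.59. Of the 4 ribosomal protein genes on the X chromosome, Rpl10 held a peak (25%, 4.56 to 69.9%). Of the 14 on chromosome 7, where these genes are most frequent, 10 did (71.4%, 45.4 to 88.3%). Both intervals include the 61.8% of all 76 genes.

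Several peaks in 1 gene were common. There was 1 peak in 23 genes, 2 in 19, 3 in 4 (Rpl4, Rplp0, Rplp1 and Rps2) and 4 in Rpl27a. In the 24 genes with several peaks, the first and last summits were a median of 1282.5 bp apart. The intervals of the lowest and the highest peak lay apart in 8 of the 24 genes, namely Rpl4, Rpl6, Rpl13, Rpl27a, Rpl28, Rpl37a, Rplp0 and Rps2. Of the 19 such genes with a known strand, the first peak was the higher in 11 and the last in 8. Exons were not used here, so peaks on either side of an intron could not be told from peaks in separate parts of the mRNA.

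The peaks of ribosomal protein genes were deep and stood on a high background. Their median fragment number was 79 (5 to 205), against 22 for all protein-coding genes. Their median background was 20.1 fragments (interquartile range 11.8 to 30.2), against 2.63 (1.31 to 5.25). Background is the number of fragments the peak caller expected at the summit, and it was solved for each peak from the deposited ratio and p-value. Of the 143 peaks of the list that stood on a background of 32 fragments or more, 16 (11.2%) lay in these genes, which held 0.363% of all peaks.

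At like background, the fold enrichment of these genes was near that of others. With a background from 8 to 32 fragments, 47 peaks of ribosomal protein genes had a median of 3.91, against 3.76 (interquartile range 3.02 to 4.79) for 2577 peaks in other protein-coding genes. With 32 fragments or more the medians were 3.01 for 16 peaks and 2.96 (2.36 to 3.71) for 88. From 2 to 8 fragments they were 5.52 for 13 peaks and 5.34 (4.23 to 6.997) for 9594. Below 2 fragments lay only the peak of Rpl19, in a range that held 38.1% of the peaks of other genes. The lower fold enrichment of the ribosomal protein genes over all peaks went with their place at the high end of the background. Fold enrichment is a ratio to that background, and only peaks that passed a limit on q are listed, so they are not independent. In other genes the median also fell, from 6.40 below 2 fragments to 2.96 at 32 or more. How far this coupling brings the medians together was not tested.

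**Figure D3:**
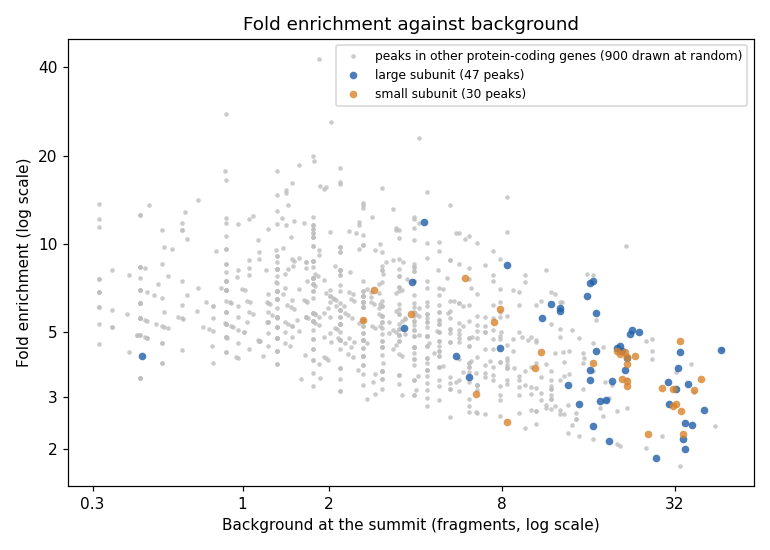
Fold enrichment (y axis, log scale) against background in fragments at the summit (x axis, log scale) for the 47 large subunit and 30 small subunit peaks, over 900 peaks of other protein-coding genes drawn at random. The coloured points crowd at a background of 8 fragments and more, where their median of 3.91 (8 to 32 fragments) lies close to the 3.76 of other genes.

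Peak widths lay near those of all protein-coding genes. The median was 305 bp, with the middle 50% between 221 and 438 bp, against 315 bp (229 to 476 bp) for all protein-coding genes. The narrowest width of the list, 200 bp, was shared by 4 peaks, and 1 peak reached 1000 bp. The summed widths of the peaks of a gene came to a median of 20.1% of its span in the 47 genes. The largest were 64.2% in Rpl28 and 61.4% in Rplp1. A peak of Rplp1 ran past the gene span, and its full width was counted. The median of 20.1% is close to the 24.9% of other protein-coding genes under 5 kb that held a peak.

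Summits were placed along 37 of the 47 genes, those with a strand in the RefSeq windows, from the gene start at 0 to the end at 100%. The median place of their 61 summits was 68.6% (interquartile range 33.7 to 86.5%). The final 20% of the span held 23 summits (37.7%) and the first 20% held 7 (11.5%). In other protein-coding genes under 5 kb the final 20% held 21.6% of summits and the median place was 53.4%. In all other protein-coding genes these values were 39.0% and 70.1%. Of the 61 summits, 19 (31.1%) lay within 500 bp of the gene end, against 25.7% in other protein-coding genes under 5 kb and 5.29% in all other protein-coding genes. Among them were Rpl28 at 162 bp, Rplp2 at 186 bp, Rpl35 at 192 bp, Rpl13 at 195 bp, Rps15 at 197 bp and Rpl10 at 201 bp. The large subunit had 43.2% and the small subunit 29.2% of summits in the final 20%, from 37 and 24 summits.

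Background was higher in the later part of the gene. The 21 summits in the first 50% of the span had a median background of 8.32 fragments (interquartile range 4.29 to 16.6), and the 40 in the rest of the span had 22.8 (18.2 to 33.4). The interquartile ranges of fold enrichment overlapped, with medians of 4.15 (3.32 to 6.62) and 3.58 (2.78 to 4.29). In other protein-coding genes under 5 kb the median fold enrichment was 5.90 over a background of 2.57 fragments in the first 50% and 5.51 over 4.07 in the rest.

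**Figure D4:**
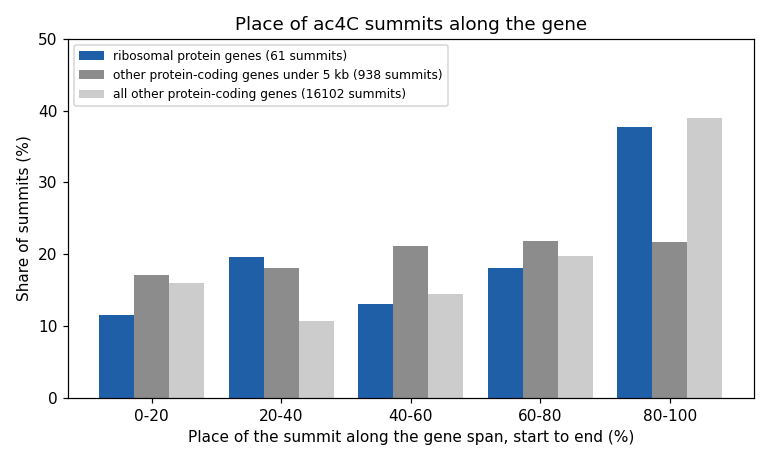
Share of summits (y axis, percent) in 5 equal parts of the gene span from start to end (x axis, percent of span), for 61 summits in ribosomal protein genes, 938 in other protein-coding genes under 5 kb and 16102 in all other protein-coding genes. In ribosomal protein genes the final 20% held 37.7% of summits and the first 20% held 11.5%.

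Many of these genes carry small nucleolar RNA (snoRNA) genes, whose RNAs guide the modification of ribosomal RNA, in their introns. The table placed 58 snoRNA genes inside 29 of the 76 genes. A peak was found in 19 of these 29 hosts (65.5%, 47.3 to 80.1%) and in 28 of the 47 other ribosomal protein genes (59.6%, 45.3 to 72.4%). Peaks touched 12 of the 58 snoRNA genes, and a summit lay within 2 of them, Snord100 in Rps12 (fold enrichment 3.77) and LOC115490074 in Rps20 (5.39). Of all snoRNA genes 0.373% held a summit. The share of all snoRNA genes touched by a peak was not computed here, so the 12 of 58 have no reference. Fragments of the snoRNA and of its host could not be told apart without strand and splicing.

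Ribosomal protein genes have left many processed copies in the genome, and 315 pseudogenes were named in the table as copies of 62 of the 76 genes. Of these copies 96 held a summit (30.5%, 25.7 to 35.8%), against 5.41% of all pseudogenes. They held 100 peaks, of which 74 lay outside protein-coding genes. Their median fold enrichment was 6.58 on a median of 18 fragments over a background of 1.58, so they stood at lower background than the genes themselves. Among the highest were Rpl18-ps1 at 31.1 (22.5 to 42.1), on 40 fragments, and Rps6-ps1 at 20.3 (14.4 to 27.7), on 37. The parent genes Rpl18 and Rps6 stood at 4.32 and 3.28. On a background of 8 fragments or more, 16 peaks of copies had a median of 3.43. The copies named here and below were chosen after their values were seen.

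Of the 29 ribosomal protein genes without a peak of their own, 13 had a copy with a peak, against 28 of the 47 genes with a peak of their own. A copy was named in the table for 25 of the 29 genes and for 62 of all 76. The 29 and the 47 thus both include genes without any copy, so these shares understate those among genes with a copy. Examples of copies whose parent held no peak are Rpl17-ps4 at 10.6 (6.02 to 17.6), Rpl38-ps1 at 9.87 (5.47 to 16.7), Rpl7-ps7 and Rpl7-ps9 at 8.35 each, Rpl5-ps2 at 6.26 and Rps19-ps2 at 5.56. These rested on 7 to 13 fragments. Near-identical copies can share reads with their parent, and how such reads were placed is not given in the sources used here. Values of single genes and of single copies were therefore uncertain. Whether fragments of a gene without a peak were placed on its copies was not tested.

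**Figure D5:**
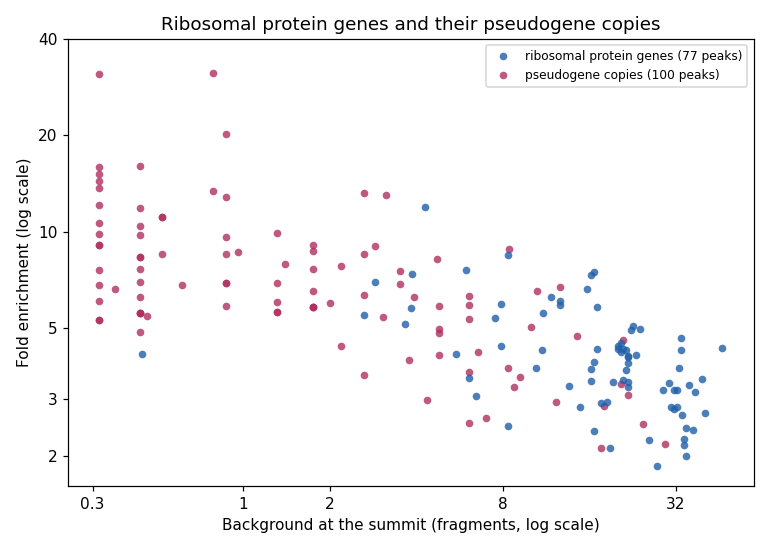
Fold enrichment (y axis, log scale) against background at the summit in fragments (x axis, log scale) for the 77 peaks in ribosomal protein genes and the 100 peaks in their pseudogene copies. The copies lie mostly to the left, at a median background of 1.58 fragments and a median fold enrichment of 6.58. The genes lie to the right, at a median background of 20.1.

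Of 12 related ribosomal proteins outside the symbol rule 3 held a peak (25%, 8.89 to 53.2%), each with 2 peaks. The interval of this share includes the 30.6% of all protein-coding genes. It also overlaps the interval of the 76 genes, 50.6 to 71.9%. Rack1, a scaffold on the head of the small subunit, stood at 7.33 (5.35 to 9.82). Fau, a fusion of a ubiquitin-like protein and a small subunit protein, stood at 4.87 (4.04 to 5.81). The tissue-restricted or paralogous Rpl3l, Rpl10l, Rpl22l1, Rpl36al and Rpl39l were among the 9 without a peak.

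Mitochondrial ribosomal proteins, which are encoded in the nucleus and build a separate ribosome, held peaks in 22 of 78 genes (28.2%, 19.4 to 39.0%), close to the 30.6% of all protein-coding genes. Their intervals did not overlap those of the 76 cytosolic genes. Their median at the highest peak was 5.18, their median background 2.84 fragments and their highest genes Mrpl4 at 10.2, Mrpl34 at 7.82 and Mrps5 at 7.63. Ribosome assembly factors held peaks in 18 of 35 genes (51.4%, 35.6 to 67.0%), with a median of 4.84 and a median background of 3.41. Their highest genes were Ubtf at 10.6, which activates transcription of ribosomal RNA genes, then Polr1b at 8.36, a subunit of RNA polymerase I, and Rrp9 at 7.44. With a −log10 q of at least 10, 10.3% of the mitochondrial ribosomal proteins and 14.3% of the assembly factors kept a peak. At this limit 17.5% of all protein-coding genes and 38 of the 76 cytosolic ribosomal protein genes did. Median fragment numbers were 19.5 in the mitochondrial list, 21 in the assembly factors and 79 in the cytosolic genes. The part of depth in these shares was not tested.

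Markers of the uterus and its cell types were checked against the tissue label. Of 23 markers 21 held a peak (91.3%, 73.2 to 97.6%), against 30.6% of all protein-coding genes. Their highest peaks ran from Dcn at 1.75 to Hand2 at 17.5, with Pgr at 10.02 and Esr1 at 8.97. Epcam and Ptprc held none. The other epithelial markers, Krt8 at 8.10, Cdh1 at 7.07, Krt18 at 6.62 and Krt19 at 5.03, did, as did the leukocyte marker Cd68 at 5.61. In whole tissue, fewer cells of a type and less RNA per cell cannot be told apart, and the peaks do not show which cells the ribosomal protein mRNAs came from.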

How the data were processed

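The data were a single narrow-peak list, for the immunoprecipitation library against its background. The submitters' processing notes name HISAT2 2.2.1, MACS3 3.0.0a7 and build mm10; settings are not given in the sources used here. The authors deposited a fold enrichment (a ratio over background) and 2 confidence values per peak, the −log10 p-value and the −log10 q-value. The largest q was 0.0499. Peaks were matched to RefSeq genes of GRCm38.p6 by summit. The fragment number and background were recovered from fold enrichment (pseudocount 1) and the Poisson p-value for 21192 of 21192 peaks, a step tested on simulated data. Depth of the libraries was not used here. Intervals are 95% Wilson or exact Poisson intervals and cover counting error only, with the background taken as known. Whether PCR copies were removed is not given in the sources used here. The RefSeq windows gave strands and start sequences. Named genes are all members, with the 10 highest, the 5 widest and those with several peaks in full, and the 3 highest of other lists. Some of these genes count in the totals, but their own values are not reported here. The members and lists were chosen with earlier results of these data known. The alternatives were limits on q, fold enrichment and width, other overlap rules, and leaving out shared summits. Analyses used python 3.11.15, numpy, pandas and scipy 1.17.1. Exon annotation was not used here, nor any genome sequence beyond the RefSeq windows.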

Additional observations from a re-analysis of the deposited data

How the results depend on the processing

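No paired analysis was possible because each group has 1 library and no value comes from a test. With peaks at or above the median fold enrichment of the list, 13 genes held a peak (9 of the large and 4 of the small subunit) against 47 (28 and 19), since only 14 of the 77 peaks pass that limit. Under it the median at the highest peak was 6.62 against 4.27, by construction, and the median place was 36.8% against 68.6%, and the cause of that shift was not tested. Under the remaining 6 limits and overlap rules, 38 to 47 genes held a peak, and the medians stayed within the exact binomial interval of the reported median over genes or peaks (3.51 to 4.93 for fold enrichment, 268 to 376 bp for width, 50.7 to 80.6% for place). Taking each gene at the middle value of its peaks gave 3.77 for fold enrichment. A weakly enriched site at low depth was not detectable.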

Other observations

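Rps12 had the most copies with a peak, 13 of 23 in the table, while the gene itself held 1 peak. Of these, 8 lay on the X chromosome within 1508 kb (124349737 to 125857922). Their fold enrichment ran from 4.39 to 13.7 on 12 to 17 fragments over backgrounds of 0.317 to 2.19, and their widths from 216 to 303 bp. The 8 copies were all of the Rps12 copies in that stretch of the table. Rpsa followed with 7 of 12 copies, then Rpl19 with 5 of 12, Rpl31 with 5 of 23 and Rps2 with 5 of 12. These genes were named after their values were seen.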
